A study of Mus musculus with 8 samples.

Results

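Genes that receive, restrain or report Wnt signals were followed in whole mouse kidneys at embryonic day 14.5 after loss of Mdm4 from the ureteric lineage. The group holds 42 genes, namely receptors, co-receptors, secreted modulators, transducers, TCF/LEF factors and feedback targets, and no Wnt ligands. They were chosen by name, with earlier results of these data known. Their 59 probes were found through the RefSeq accession of each probe among 22911 named genes on the array. Of the 42 genes 40 were measured, against 16013 genes in all. Lgr6 and Rspo2 had a probe that did not pass the filter on dim spots.

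The mutant is a conditional Mdm4 knockout in which a Hoxb7-Cre transgene removes the gene, and the comparison group is labelled wild type. Hoxb7-Cre acts in the ureteric bud and the collecting ducts that grow from it, so that stroma, nephron progenitors, vessels and blood cells of the mutant kidney still carry Mdm4, an inhibitor of p53. Strain, sex, the floxed allele, and whether wild-type embryos carried Cre are not stated. Of each genotype 4 RNAs were studied, joined in 4 pairs of a mutant with a wild type, and each pair was hybridised to 2 arrays with the Cy3 and Cy5 dyes exchanged, which gives n = 4 pairs. The labels do not tell whether 1 RNA stands for 1 embryo or several, so the p-values measure the spread between these pairs, part of which may be technical.

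Wnt proteins bind Frizzled receptors together with Lrp5 or Lrp6, which stops the destruction of beta-catenin (Ctnnb1) by the Axin complex, and beta-catenin then activates genes with TCF/LEF factors. Among the genes activated are Axin2, Lef1, Notum, Znrf3 and Rnf43, and several of them damp the pathway in turn. In the embryonic kidney a Wnt signal from the ureteric bud drives nephron progenitors to form nephrons, and other Wnt signals act at the bud's tips, in the collecting ducts and in the stroma. RNA of the whole organ was measured, so that fewer cells of a type and less RNA per cell cannot be told apart.

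Unless stated, a value is the log2 of mutant signal over wild-type signal, with its standard error from limma (n = 4 pairs). A level is a log2 intensity of 1 RNA, and levels of different genes are not compared, because each probe has its own brightness. Adjusted p-values are limma's (Benjamini-Hochberg, over the 16013 genes), and the threshold was 0.05. Between 60.7% and 70.2% of the non-control spots of a channel were well above background, and 0 spots were saturated. Mdm4 itself was at -0.18 ± 0.07, with -0.03, -0.06, -0.28 and -0.35 in pairs 1 to 4 (limma adjusted p = 0.471). No source used here tells whether its probes lie inside the stretch that Cre removes, so this value does not check the labels.

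Defining markers of kidney compartments were present, with 12 of 12 ureteric tip, 14 of 15 ureteric trunk, 10 of 10 nephron progenitor and 17 of 17 stromal markers well above background in all 16 channels. Pair 3 stood apart from the others in Y-linked transcripts. Transcripts of 4 Y-linked genes averaged 2.76, 1.31 and 2.83 in pairs 1, 2 and 4 but -1.64 in pair 3, so that pair 3 held more Y-linked RNA in its wild type and the other pairs in their mutant. Turned ratios of the 2 arrays of a pair correlated at 0.23 to 0.60 over the genes tested, and those of arrays from different pairs at -0.34 to 0.46. The lowest of these values joined pairs 1 and 3 in opposite dye orientations. In the same orientation, pair 3 correlated with pair 1 at 0.01 and -0.02, but with pairs 2 and 4 at 0.23 to 0.36. Pairs 1, 2 and 4 correlated with each other at 0.22 to 0.46 there.

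None of the 40 Wnt genes passed the threshold, and among all genes tested 0 did (0% higher and 0% lower, smallest adjusted p 0.0750). At an unadjusted p under 0.05, limma gave 6 Wnt genes higher and 3 lower in the mutant. The higher ones were Dkk2, Sfrp4, Sfrp2, Fzd1, Fzd7 and Lgr4, and the lower ones Lef1, Rnf43 and Znrf3. That is 15% and 7.5% of the group, where 7.01% of all genes were higher and 3.6% lower by the same criterion. The median ratio was 0.02 for the 40 genes and 0.01 for all genes. With 1 pair left out it ran from -0.02 (without pair 4) to 0.07 (without pair 1), so its sign rested on single pairs. Its members spread wider, with a median size of 0.14 regardless of sign against 0.07 over all genes. Means above 0 numbered 22 (55%, against 53.9% of all genes) and means below 0 numbered 18 (45%, against 46.1%). Of the group 9 were above 0 in all 4 pairs (22.5%, against 12.1% of all genes) and 3 below 0 in all 4 pairs (7.5%, against 7.84%). The arrays with mutant RNA in Cy5 and those with it in Cy3 gave means of opposite sign for 14 of the 40 (35%, against 51.3% of all genes).

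These counts moved with the processing. When each array was centred on its median in place of loess, which put the median of all genes at 0.14, limma gave 16 Wnt genes higher and 0 lower at an unadjusted p under 0.05 (23.6% and 0.575% of all genes). Dkk2 alone then passed the threshold, at 0.62 (limma adjusted p = 0.0421), as did 0.262% of all genes. With all 8 arrays fitted, a coefficient for dye and the pair as replicate block, 6 were higher (8.37% of all genes) and 8 lower (4.31%), the 5 further ones being Fzd10, Lrp5, Notum, Tcf7 and Wif1. None of them passed the threshold there, while 0.244% of all genes did. From levels alone, without pairing, 3 were higher and 3 lower (4.29% and 1.98% of all genes). The 4 arrays with mutant RNA in Cy5 gave 7 higher and 7 lower (10.5% and 10% of all genes), and those with it in Cy3 gave 9 higher and 3 lower (14.3% and 8.56%). Agilent's own processed signals and the deposited series table each left 1 lower, Znrf3 (2.74% and 2.75% of all genes). Without pair 1, limma gave 8 higher and 2 lower (7.05% and 3.52% of all genes), without pair 2 it gave 3 and 1 (4.81% and 1.5%), and without pair 4 it gave 3 and 1 (4.7% and 2.14%). Dkk2 and Znrf3 were among the genes so named in each of these fits with a pair left out.

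**Figure D1:**
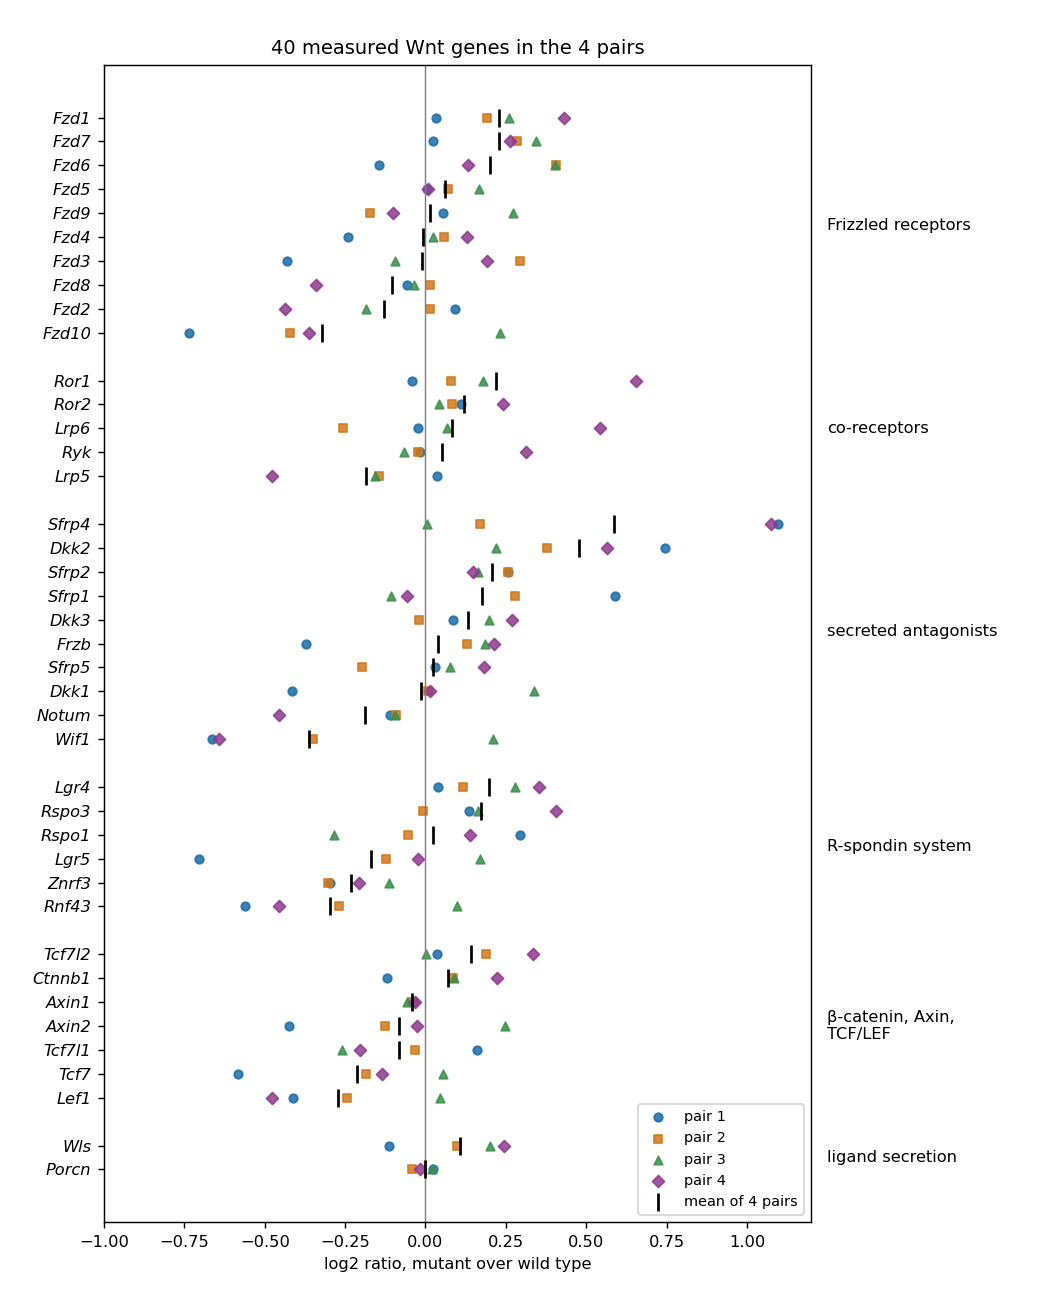
Log2 ratios of mutant over wild type (horizontal axis) for the 40 measured Wnt genes, grouped by role, with 1 point per pair and a black bar at the mean of the 4 pairs. Dkk2 and Sfrp2 lay above 0 in every pair, Znrf3 below 0 in every pair, and Lef1, Rnf43, Wif1 and Fzd10 below 0 in pairs 1, 2 and 4 only.

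Secreted antagonists held the largest ratios. Several of these proteins keep Wnt ligands from their receptors. The Sfrp proteins, Frzb and Wif1 bind the ligand, and Dkk1 and Dkk2 occupy Lrp5 and Lrp6. Notum acts on the lipid of the ligand instead. Of the 10 genes 7 had a mean above 0 (53.9% of all genes), with a median of 0.09, which was 0.13 without pair 1, 0.06 without pair 3 and 0.03 without pair 4. Renal stroma markers were higher beside them: 15 of 17 had a mean above 0, with a median of 0.26, and their summed linear intensity ran from 326123 to 376414 in wild type and from 352113 to 465237 in the mutant. Stroma was not alone in this. Means above 0 also numbered 9 of 9 for macrophage markers, 8 of 8 for podocyte markers and 15 of 16 for p53 targets (medians 0.27, 0.32 and 0.44). They numbered 2 of 12 for ureteric tip and 1 of 15 for ureteric trunk markers (medians -0.38 and -0.41). Of these markers 0 fell under the filter on dim spots, and their part in the ratios of the antagonists was not tested.

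Dkk2 levels were 10.25, 10.12, 10.25 and 9.84 in the wild-type RNAs of pairs 1 to 4 and 11.00, 10.50, 10.47 and 10.40 in the mutant RNAs. Every mutant level lay above every wild-type level. Levels parted in this way with the mutant above for 2 Wnt genes (5%), against 3.3% of all genes. The ratio of Dkk2 was 0.75, 0.38, 0.22 and 0.56 in pairs 1 to 4 and above 0 on 8 of 8 arrays, which gives 0.48 ± 0.09 or 1.39-fold (limma adjusted p = 0.304). It was larger on arrays with mutant RNA in Cy3 (0.66) than in Cy5 (0.30).

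Sfrp4 levels were 8.52, 8.40, 8.47 and 7.59 in wild type and 9.62, 8.57, 8.47 and 8.67 in the mutant. The genotypes overlapped, since the mutant of pair 3 was dimmer than the wild type of pair 1. Its ratio of 1.10, 0.17, 0.01 and 1.07 in pairs 1 to 4 rested on pairs 1 and 4 (mean 0.59 ± 0.21, limma adjusted p = 0.442). Without pair 1 the mean was 0.42 and without pair 4 it was 0.42.

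Sfrp2, another ligand-binding antagonist, was higher by a small and even amount. Its levels were 13.69, 13.39, 13.43 and 13.54 in wild type and 13.94, 13.64, 13.59 and 13.69 in the mutant. The levels overlapped between pairs while the ratio was above 0 in each pair, at 0.26, 0.26, 0.16 and 0.15 (mean 0.21 ± 0.05, limma adjusted p = 0.397). On arrays with mutant RNA in Cy5 the mean was 0.09, and in Cy3 it was 0.32.

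Notum, a secreted lipase that removes the lipid of Wnt ligands, was lower on 8 of 8 arrays, as was 1 Wnt gene in 40 (2.5%) against 1.31% of all genes. Its ratio was -0.11, -0.09, -0.09 and -0.45 in pairs 1 to 4, so that pair 4 decided the mean of -0.19 ± 0.08 (limma adjusted p = 0.481). Levels in wild type were 11.77, 11.64, 11.72 and 11.50, and those in the mutant were 11.66, 11.55, 11.63 and 11.05. The groups overlapped but for the mutant of pair 4. Without pair 4 the mean was -0.10.

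Wif1, a ligand-binding inhibitor named here after its values were seen, had the lowest mean of the 40 genes, -0.36 ± 0.15 (limma adjusted p = 0.471). It was at -0.66, -0.35 and -0.64 in pairs 1, 2 and 4 and at 0.21 in pair 3. The other antagonists differed less. Sfrp1 ran from -0.11 to 0.59 over the pairs, Dkk1 from -0.42 to 0.34 and Frzb from -0.37 to 0.21, each with both signs. Dkk3 was at 0.13 ± 0.07 and Sfrp5 at 0.02 ± 0.08.

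**Figure D2:**
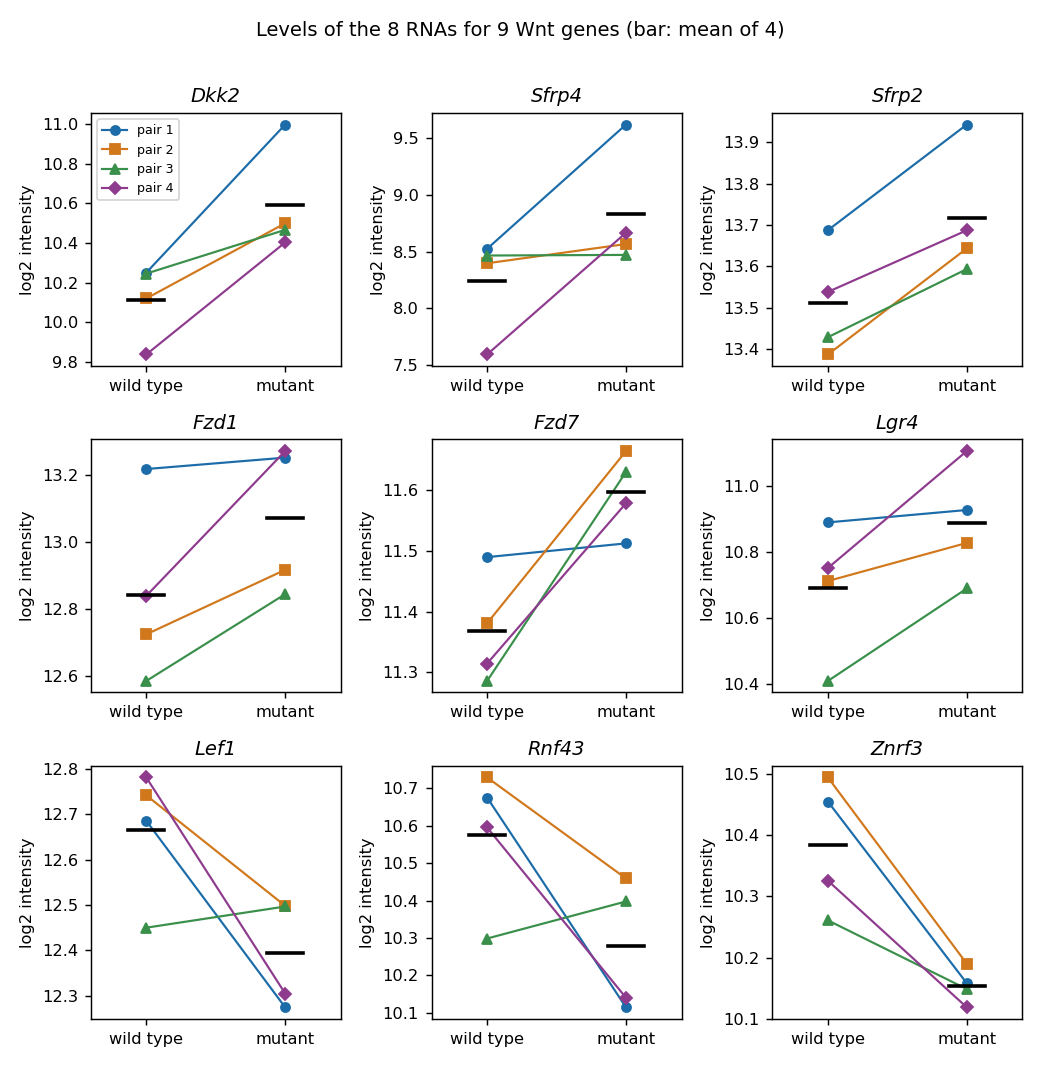
Log2 intensity (vertical axis, own scale per gene) of the 4 wild-type and 4 mutant RNAs for the 9 Wnt genes with an unadjusted p under 0.05, with lines joining the RNAs of a pair and black bars at the mean of 4. The genotypes did not overlap for Dkk2, Fzd7 and Znrf3, and for Lef1 and Rnf43 the line of pair 3 ran upward.

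The 10 Frizzled genes, which encode the Wnt receptors themselves, were all measured, with 5 above and 5 below 0. Their median of 0.0034 had no settled sign or size: it was -0.010 with each pair centred on the genes tested, 0.11 with arrays centred on their median, 0.08 without pair 1, and 0.00065 to 0.02 with another pair left out. Fzd7 levels were 11.49, 11.38, 11.29 and 11.31 in wild type and 11.51, 11.67, 11.63 and 11.58 in the mutant. These levels did not overlap, although pair 1 differed by 0.02 only. The mean was 0.23 ± 0.07 (limma adjusted p = 0.424), made almost wholly by arrays with mutant RNA in Cy3 (0.45), while those with it in Cy5 gave 0.0080.

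Fzd1 was at 0.03, 0.19, 0.26 and 0.43 in pairs 1 to 4, with a mean of 0.23 ± 0.08 (limma adjusted p = 0.429). Its levels were 13.22, 12.73, 12.59 and 12.84 in wild type and 13.25, 12.92, 12.85 and 13.27 in the mutant, and they overlapped, because both RNAs of pair 1 were bright. Its means by dye orientation were 0.08 with mutant RNA in Cy5 and 0.38 in Cy3. Without pair 4 the mean of Fzd1 was 0.16.

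Fzd10 had the lowest mean of the receptors, -0.32 ± 0.15 (limma adjusted p = 0.507). It was at -0.74, -0.42 and -0.36 in pairs 1, 2 and 4 and at 0.23 in pair 3. Without pair 1 the mean was -0.18, and without pair 3 it was -0.51. Wild-type levels were 11.12, 10.99, 10.35 and 10.43, and mutant levels were 10.38, 10.57, 10.59 and 10.07, so the wild-type RNAs of pairs 1 and 2 stood above the rest.

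The remaining Frizzled genes changed sign between pairs or stayed near 0. Fzd6 was at 0.20 ± 0.10, with -0.14 in pair 1, and Fzd2 at -0.13 ± 0.10, with -0.44 in pair 4. Fzd4 showed how much a ratio could owe to dye: it averaged 0.30 with mutant RNA in Cy5 and -0.31 in Cy3, which left -0.0065. Fzd3, Fzd5, Fzd8 and Fzd9 had means between -0.10 and 0.06.

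Of the 5 co-receptor genes 4 had a mean above 0 (53.9% of all genes), with a median of 0.08, which was -0.04 without pair 4. None had an unadjusted p under 0.05 (7.01% of all genes higher and 3.6% lower). Ror2, a tyrosine kinase receptor for Wnt5a, was above 0 on 8 of 8 arrays by a small amount, with 0.11, 0.08, 0.04 and 0.24 in pairs 1 to 4 (mean 0.12 ± 0.06, limma adjusted p = 0.527). The same sign on all arrays in this direction was seen for 2 Wnt genes (5%), against 3.35% of all genes. Its levels were 11.84, 11.85, 12.01 and 11.81 in wild type and 11.96, 11.93, 12.05 and 12.05 in the mutant, which overlap.

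Ror1, the related receptor, was at -0.04, 0.08, 0.18 and 0.66, so that pair 4 set its mean of 0.22 ± 0.12 (limma adjusted p = 0.551). Its levels were 11.02, 10.78, 10.60 and 10.34 in wild type and 10.98, 10.86, 10.78 and 11.00 in the mutant, with overlap. Without pair 4 the mean was 0.07.

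Lrp5, which carries the signal with a Frizzled, was the only co-receptor gene below 0, at 0.03, -0.14, -0.16 and -0.48 in pairs 1 to 4 (mean -0.19 ± 0.09, limma adjusted p = 0.519). Its levels were 10.31, 10.30, 10.49 and 10.29 in wild type and 10.34, 10.16, 10.34 and 9.81 in the mutant, and only the mutant RNAs of pairs 2 and 4 fell below all wild-type levels. Without pair 4 the mean was -0.09. The paralogue Lrp6 went the other way in pair 4, at 0.54, with a mean of 0.08 ± 0.13, and Ryk was at 0.05 ± 0.08.

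R-spondins sustain Wnt signals: with the receptors Lgr4, Lgr5 and Lgr6 they withdraw the ligases Znrf3 and Rnf43, which otherwise remove Frizzled proteins from the cell surface. None of the 6 measured genes of this system passed the threshold. At an unadjusted p under 0.05, limma gave 1 higher, Lgr4, and 2 lower, Znrf3 and Rnf43 (7.01% and 3.6% of all genes). Znrf3 levels were 10.45, 10.49, 10.26 and 10.33 in wild type and 10.16, 10.19, 10.15 and 10.12 in the mutant. Every mutant level lay below every wild-type level, as was so for 1 of 40 Wnt genes (2.5%) against 1.52% of all genes.

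The ratio of Znrf3 was -0.30, -0.30, -0.11 and -0.21 in pairs 1 to 4, with a mean of -0.23 ± 0.06 (limma adjusted p = 0.397). It came from the arrays with mutant RNA in Cy5, at -0.40, -0.57, -0.36 and -0.50, whereas those with it in Cy3 gave -0.19, -0.03, 0.14 and 0.09. Among 3 probes of Znrf3 the means ran from -0.23 to -0.01.

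Rnf43 levels were 10.68, 10.73, 10.30 and 10.60 in wild type and 10.11, 10.46, 10.40 and 10.14 in the mutant. They overlapped through pair 3, whose wild-type RNA was the dimmest of its group. The ratio was -0.56, -0.27 and -0.46 in pairs 1, 2 and 4 and 0.10 in pair 3, a mean of -0.30 ± 0.11 (limma adjusted p = 0.453). Both dye orientations gave a negative mean, -0.40 with mutant RNA in Cy5 and -0.19 in Cy3.

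Lgr4 was at 0.04, 0.12, 0.28 and 0.35 in pairs 1 to 4 (mean 0.20 ± 0.07, limma adjusted p = 0.445). Its levels were 10.89, 10.71, 10.41 and 10.75 in wild type and 10.93, 10.83, 10.69 and 11.11 in the mutant, and they overlapped. A second, dimmer probe of Lgr4 had a mean of -0.18, so the direction depended on the probe. Lgr5, a target of the pathway named here after its values were seen, varied from -0.70 in pair 1 to 0.17 in pair 3 (mean -0.17 ± 0.14, and 0.0073 without pair 1).

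The ligand gene Rspo3 was at 0.13, -0.01, 0.16 and 0.41 (mean 0.17 ± 0.08), and Rspo1 had both signs, from -0.28 to 0.29. The probe of Rspo2 was well above background in at most 1 of 8 wild-type and 4 of 8 mutant channels, and that of Lgr6 in 5 of 8 of each. Without the filter on dim spots Rspo2 was at 0.23 ± 0.05 (limma adjusted p = 0.385), and its intensities there lie close to background.

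**Figure D3:**
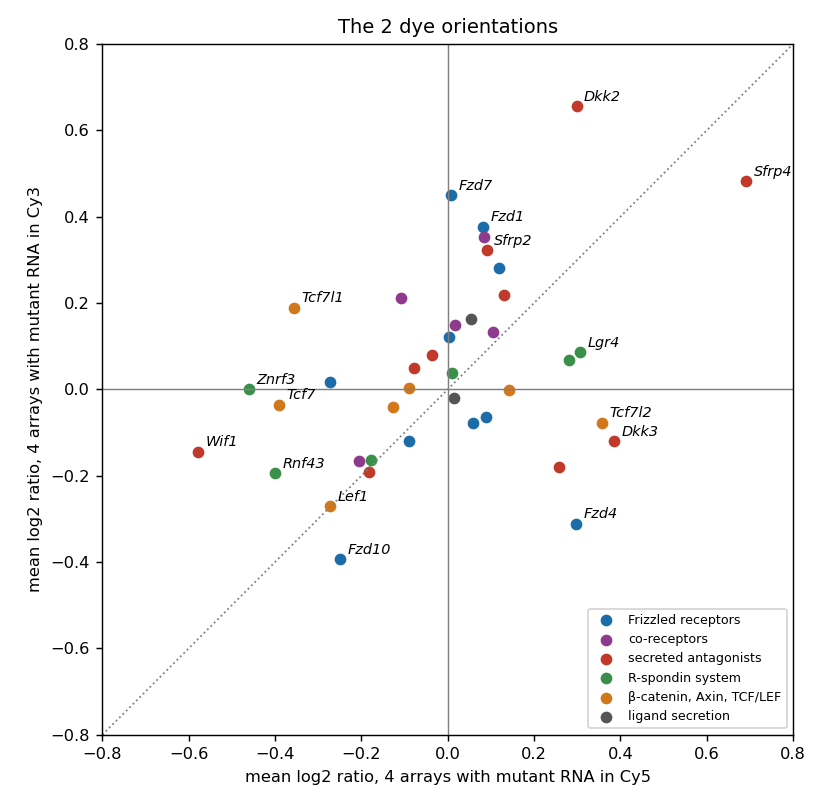
Mean log2 ratio over the 4 arrays with mutant RNA in Cy5 (horizontal axis) against the 4 arrays with it in Cy3 (vertical axis) for the 40 Wnt genes, coloured by role, with a dotted line where both are equal. Dkk2, Sfrp4, Lef1, Rnf43 and Fzd10 had the same sign in both, while Fzd4, Tcf7l1, Tcf7l2 and Dkk3 changed sign.

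Downstream of the receptors, 5 of 7 genes for beta-catenin, Axin proteins and TCF/LEF factors had a mean below 0 (46.1% of all genes), with a median of -0.08. It was -0.04 without pair 1, -0.04 without pair 3 and -0.05 without pair 4. With arrays centred on their median it was 0.08, below the 0.14 of all genes on that scale, and Lef1, Tcf7 and Axin2 kept a mean below 0. Lef1, a DNA-binding partner of beta-catenin and itself a target, had wild-type levels of 12.69, 12.74, 12.45 and 12.78 and mutant levels of 12.27, 12.50, 12.50 and 12.30. The mutants of pairs 1 and 4 lay below all wild-type RNAs, and the wild-type RNA of pair 3 was the dimmest of its group. The ratio was -0.41, -0.24 and -0.48 in pairs 1, 2 and 4 and 0.05 in pair 3 (mean -0.27 ± 0.10, limma adjusted p = 0.442). Dye made no difference to it, with -0.27 in both orientations.

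Tcf7, which encodes another factor of the family, was at -0.58, -0.19, 0.05 and -0.13 in pairs 1 to 4 (mean -0.21 ± 0.11, limma adjusted p = 0.529). Its wild-type levels were 9.94, 9.84, 9.61 and 9.51, and its mutant levels were 9.36, 9.65, 9.67 and 9.38, with overlap. Without pair 1 the mean was -0.09, and a dimmer second probe of Tcf7 gave a mean of -0.01.

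Axin2, often read as a gauge of beta-catenin activity, was at -0.42, -0.13, 0.25 and -0.03 (mean -0.08 ± 0.11, limma adjusted p = 0.790). Its levels were 8.63, 8.63, 8.26 and 7.89 in wild type and 8.21, 8.50, 8.51 and 7.86 in the mutant and overlapped throughout. The 95% interval of its mean ran from -0.35 to 0.18, and without pair 1 the mean was 0.03.

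Ctnnb1 was at -0.12, 0.09, 0.09 and 0.22 (mean 0.07 ± 0.07, limma adjusted p = 0.727). Levels were 14.33, 14.11, 14.06 and 13.99 in wild type and 14.21, 14.20, 14.15 and 14.21 in the mutant, with overlap. Its dimmer second probe had a mean of -0.30, the opposite sign. Axin1 was close to 0 in every pair, from -0.06 to -0.03. Tcf7l1 (-0.08 ± 0.08) and Tcf7l2 (0.14 ± 0.07) each turned sign with the dye.

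The genes for processing and release of Wnt ligands differed little. Wls, the carrier that takes ligands to the cell surface, had levels of 12.01, 11.74, 11.55 and 11.59 in wild type and 11.90, 11.84, 11.76 and 11.83 in the mutant. Its ratio was -0.11, 0.10, 0.20 and 0.25 (mean 0.11 ± 0.08, limma adjusted p = 0.624). The mean was 0.18 without pair 1 and 0.06 without pair 4, and a second probe of Wls was at -0.06. Porcn, which attaches the ligands' lipid, had levels of 9.43, 9.65, 9.51 and 9.72 in wild type and 9.45, 9.61, 9.53 and 9.70 in the mutant, so every pair differed by under 0.05. Its mean was -0.0028 with a 95% interval from -0.13 to 0.12 (limma adjusted p = 0.989).

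A pattern over the pairs, noticed after the values were seen, joined 7 genes. Some of them are targets of beta-catenin, but the targets Notum and Znrf3 lay outside it, below 0 in all 4 pairs. Axin2, Fzd10, Lef1, Lgr5, Rnf43, Tcf7 and Wif1 were below 0 in pairs 1, 2 and 4 and above 0 in pair 3. These are 7 of 40 Wnt genes, against 9.41% of all genes, and 0 Wnt genes had the reverse pattern, against 5.41%. Adding the 3 genes below 0 in all pairs, 10 of 40 were below 0 in pairs 1, 2 and 4 (17.2% of all genes). Above 0 in these pairs were 9 of 40 (17.5% of all genes). Among the 16 measured genes known as targets in other tissues, 4 had the pattern and 1 the reverse. Above 0 in pairs 1, 2 and 4 were 8 of those 16. The 2 arrays of each pair had the same sign for Axin2, Fzd10, Lef1 and Rnf43. They differed in sign for Lgr5 in pairs 2 and 4 and for Tcf7 in pairs 2, 3 and 4. In pair 3 Wif1 was at -0.07 with mutant RNA in Cy5 and 0.48 in Cy3, and Tcf7 at -0.19 and 0.30. All 4 Y-linked genes had the reverse pattern, with averages of 2.76, 1.31, -1.64 and 2.83 in pairs 1 to 4. The part of this Y-linked difference in the ratios of the Wnt genes was not tested.

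Markers of the ureteric trunk and collecting duct had the pattern of these Wnt genes in 8 of 15 genes. The median of these markers was -0.68, -0.36, 0.07 and -0.51 in pairs 1 to 4. Their summed linear intensity ran from 116032 to 166443 in wild type and from 98919 to 120933 in the mutant. Early nephron markers shared the pattern in 5 of 10 genes, with medians of -0.20, -0.05, 0.13 and -0.10 and -0.06 over the means. With arrays centred on their median this last value became 0.10, below the 0.14 of all genes on that scale. Of 12 ureteric tip markers 10 were below 0, with 1 of this pattern and medians of -0.55, -0.18, -0.11 and -0.55. None of the markers of these lists fell under the filter on dim spots. Their part in the ratios of the Wnt genes was not tested.

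**Figure D4:**
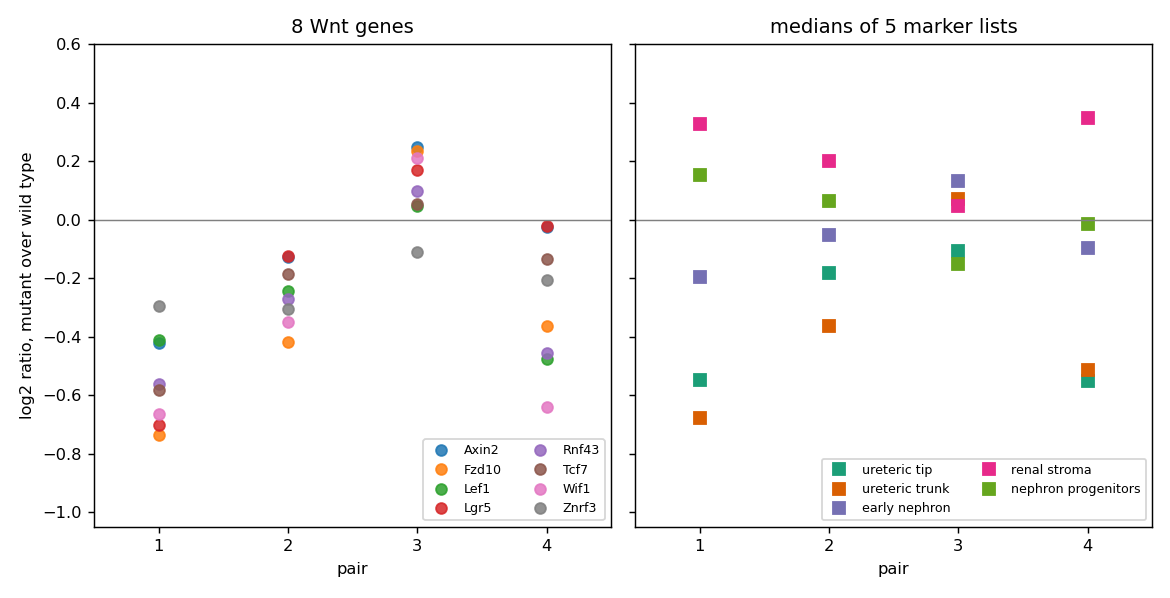
Log2 ratio of mutant over wild type (vertical axis) in each pair (horizontal axis), for 8 Wnt genes on the left and for the medians of 5 marker lists on the right. The Wnt genes other than Znrf3 lay above 0 in pair 3 only, as did the medians of ureteric trunk and early nephron markers, while renal stroma markers had a median above 0 in all pairs.

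With pair 3 left out, limma gave 6 Wnt genes lower at an unadjusted p under 0.05 (5.1% of all genes) and 3 higher (5.81% of all genes). The lower ones were Fzd10, Lef1, Rnf43, Tcf7, Wif1 and Znrf3. Their means were then -0.51, -0.38, -0.43, -0.30, -0.55 and -0.27, with limma adjusted p from 0.162 to 0.425, so again none passed. All but Znrf3 had been grouped by their sign in pair 3. Leaving out their only ratio above 0 had to lower their means, so this fit is not a separate result. With the Y-linked ratio of each pair as a covariate, 5 were lower (4.19% of all genes), the same 6 without Tcf7. The covariate was centred on its mean, so each gene kept its mean over the 4 pairs and only the error changed. This fit does not give the ratio at equal Y-linked RNA.

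Other genes of the pathway, in 5 lists, gave no call at the adjusted threshold either. Their counts at an unadjusted p under 0.05 stand beside 7.01% of all genes higher and 3.6% lower. Of 14 measured extracellular genes, 2 were higher and 1 lower by this criterion, namely the membrane glycoprotein gene Tpbg (0.18 ± 0.07) and the Wnt and BMP modulator gene Sostdc1 (0.45 ± 0.18), and the Dkk receptor gene Kremen1 (-0.13 ± 0.05). Sostdc1 was at 0.0050 and 0.03 in pairs 1 and 2 and at 0.97 and 0.78 in pairs 3 and 4.

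Of 23 cytoplasmic genes 0 were higher and 2 lower by this criterion (7.01% and 3.6% of all genes). The signal transducer gene Dvl3 was at -0.48 ± 0.15, below 0 on 8 of 8 arrays with -1.07 in pair 4, and the destruction complex gene Amer1 at -0.20 ± 0.07. Frat2, which encodes an inhibitor of the kinase Gsk3, was at -0.18 ± 0.09. Of 12 nuclear cofactor genes none met the criterion, with Pygo2 at 0.13 ± 0.07, Tle3 at -0.23 ± 0.15 and Tle2 at -0.23 ± 0.15.

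Among 16 measured genes known as targets in other tissues 5 were higher and 0 lower by the same criterion (7.01% and 3.6% of all genes). The endothelin gene Edn1 was at 0.26 ± 0.06 and the cell adhesion gene Cd44 at 0.44 ± 0.13, both above 0 on 8 of 8 arrays, and the TGF-beta pseudoreceptor gene Bambi was at 0.20 ± 0.06. Many signals other than Wnt act on these genes. Of 17 planar polarity genes, which orient cells within an epithelium, 2 were higher and 0 lower by it, Prickle2 at 0.17 ± 0.05 and Fat4 at 0.19 ± 0.06, with Vangl2 at -0.16 ± 0.08. The limma adjusted p of all genes named here lay between 0.391 and 0.611.

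To show what the start regions of these genes hold, RefSeq promoter windows (GRCm38.p6, 250 bases before to 50 after the start) were searched for the core TCF/LEF motif CTTTGA on both strands, where it reads TCAAAG on the opposite one. Of the 42 genes 26 had a window in the table, and 5 of these held the motif (19.2%), against 18.2% of 27025 genes with a window of this length. Because TCF/LEF factors also bind far from start sites, and the motif is short, a match is a description only. The stretches with a match before the start follow, 5′ to 3′ in the direction of the gene with the motif in capitals. Lef1 and Fzd1 come first, as the matching genes among the 9 with an unadjusted p under 0.05, and Ror1, Dkk1 and Frzb are shown for comparison.
Lef1 (chr3:131156074-131156219, plus strand, at 1 of 4 start sites): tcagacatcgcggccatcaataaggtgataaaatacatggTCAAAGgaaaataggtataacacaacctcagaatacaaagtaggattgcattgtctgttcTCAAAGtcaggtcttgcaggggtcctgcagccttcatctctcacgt
Fzd1 (chr5:4758413-4758466, minus strand): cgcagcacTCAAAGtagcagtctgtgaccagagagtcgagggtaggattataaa
Ror1 (chr4:100095546-100095631, plus strand): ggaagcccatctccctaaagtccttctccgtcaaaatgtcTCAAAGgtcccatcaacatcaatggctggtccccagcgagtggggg
Dkk1 (chr19:30549568-30549710, minus strand): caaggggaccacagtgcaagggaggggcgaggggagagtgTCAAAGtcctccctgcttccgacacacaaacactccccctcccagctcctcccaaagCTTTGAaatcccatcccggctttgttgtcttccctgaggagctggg
Frzb (chr2:80447446-80447531, minus strand): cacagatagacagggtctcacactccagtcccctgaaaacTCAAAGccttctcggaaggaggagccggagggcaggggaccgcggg

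Lef1 and Dkk1 carried 2 matches each, and in Lef1 they began 180 and 120 bases before that start. The 5 genes did not share a direction in the mutant: Lef1 was at -0.27, Fzd1 at 0.23, Ror1 at 0.22, Dkk1 at -0.01 and Frzb at 0.04. No window of Axin2, Rnf43, Sfrp2, Dkk2, Fzd7 or Lgr4 held these letters, and Znrf3, Notum and Sfrp4 are not among the windows used here.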

How the data were processed

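Total RNA (100 ng per labelling, per the labels) of whole kidneys was hybridised to 2-colour Agilent arrays of 62976 spots, all on 1 slide. The authors deposited scanner files with the median intensity of each spot and its local background, and a series table of log10 ratios of Cy5 over Cy3, which equals the ratio column of the scanner files after rounding. Version 8.5.1.1 of Agilent Feature Extraction is given in the submitters' processing notes, and 10.7.3.1 in the file headers.

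From the deposited intensities, limma 3.58.1 under R 4.3.3 computed ratios by normexp (offset 50) and loess within arrays, with 3671 control spots and 95 to 156 outlier spots per array left out. All ratios were given the direction mutant over wild type and averaged over the spots of a probe and then over both arrays of a pair, and lmFit and eBayes tested the 4 pairs against 0. Kept were 34594 of 56605 probes, those well above background in at least 6 of 8 channels of a genotype, and the brightest kept probe stood for a gene. Levels per RNA were taken after Aquantile normalisation between arrays. RefSeq accessions named 32994 probes. The pairing comes from the arrays themselves, which carry both RNAs of a pair.

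By the rule for named genes, full values are given for each Wnt gene with an unadjusted p under 0.05 or 1 sign on 8 arrays, for the 2 largest means per role, for Axin2, Lef1 and Ctnnb1, and for the 3 smallest p of each further list. Members and lists were chosen with earlier results of these data known. Only the limma fit was tried on simulated data, which were independent pair ratios with the spread of each gene. The steps before the fit were not tested in this way. Markers of podocytes, endothelium, smooth muscle, macrophages, neurons, adrenal cortex and p53 targets were listed too (medians 0.32, 0.06, -0.19, 0.27, 0.02, -0.06 and 0.44), and nephron progenitors were at 0.0081.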

Additional observations from a re-analysis of the deposited data

Results flagged for a closer look

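In 3 of 40 Wnt genes (7.5%, against 6.31% of all genes) 1 pair lay far from the other 3 by Dixon's criterion, which chance meets in about 1 of 20 groups. Frzb was at -0.37 in pair 1, Notum at -0.45 in pair 4 and Ryk at 0.31 in pair 4.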

How the results depend on the processing

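Under 17 alternatives, 16 of the 19 genes named by rule kept the sign of their mean, though some came close to 0: Znrf3 was at -3.23e-05 with mutant RNA in Cy3 alone, Fzd7 at 0.0080 in Cy5 alone and Lgr4 at 0.0067 with the median of its probes. Several of the alternatives could not turn a sign, because they left these means unchanged. They were the changes of the filter on dim spots, the fit of 8 arrays, the levels without pairing and the Y-linked covariate. The median of probes likewise left genes with a single kept probe unchanged. The sign turned for Porcn (0.12 with median centring, 0.043 with Agilent's processed signals, 0.043 with the deposited series table and 0.014 with mutant RNA in Cy5 alone), Ctnnb1 (-0.12 with the median of its probes, -0.0019 with mutant RNA in Cy3 alone) and Axin2. With 1 pair left out, Axin2 ran from -0.19 to 0.031 and Porcn from -0.012 to 0.0097. Median centring put the Wnt genes at a median of 0.15 and all genes at 0.14, with 16 higher, 0 lower and 1 called by limma, Dkk2 (adjusted p = 0.0421, against 0.0749 to 0.762 under the other alternatives). Lower genes at an unadjusted p under 0.05 numbered 1 with processed signals, 1 with the series table, 7 with mutant RNA in Cy5 alone and 5 with the Y-linked covariate. With the pair as replicate block over 8 arrays 8 were lower, 6 higher and 0 called. With levels and no replicate block 3 were higher. With 1 pair left out, 3 to 8 were higher, 1 to 6 lower and 0 called. The number of arrays limits precision: the median standard error of the Wnt genes was 0.08.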
